A study of Arabidopsis thaliana with 4 samples.

Results

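Light intensity under a square regime was compared at the level of DNA methylation in leaves of wild-type Col-0 Arabidopsis thaliana. In the square (SQ) regime the lamps hold 1 intensity through a 12 h light period. Plants had acclimated for 22 days, according to the design text of the series, either to square light high (SQH), with a mean of 460 μmol per square metre per second, or to square light low (SQL), with a mean of 230. Fluctuating light high and low (FLH and FLL) had the same means but followed a natural daily record, and they are used here only as a second pair of high and low light. DNA of 6 plants was pooled into 1 library per regime, so that the regime and its library cannot be told apart, and no difference below has a replicate check. The members of the comparison are the 3501 differentially methylated regions (DMRs) that the authors listed for SQH vs SQL, out of 24806 over their 4 comparisons, each chromosome, start, end and context being counted once. Methylation levels are methylated reads as a percentage of all reads over the cytosines of a region, and a difference is the level in SQL minus that in SQH, in percentage points.

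Cytosines in plants are methylated in the CpG, CpHpG and CpHpH contexts, where H is A, C or T, and each context has its own upkeep. CpG methylation is copied after replication by MET1, and it is found in transposable elements (TEs) as well as in the bodies of many active genes. CpHpG methylation is maintained mainly by CMT3 together with histone methylation of heterochromatin. CpHpH methylation is laid down anew, by DRM2 under guidance of small RNAs at short TEs and TE edges near genes, and by CMT2 within long heterochromatic TEs. ROS1 and related glycosylases remove methylation, and methylation of TEs goes with their silencing.

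Of the DMRs, 76 were in CpG, 645 in CpHpG and 2780 in CpHpH. In CpG, 61 DMRs were higher and 15 lower in SQL (80.3% higher, 95% Wilson interval 70.0 to 87.7). In CpHpG, 349 were higher and 296 lower (54.1%, 50.2 to 57.9). In CpHpH, 963 were higher and 1817 lower (34.6%, 32.9 to 36.4). The leaves under lower light thus had more methylation at most listed CpG regions and less at most listed CpHpH regions. Cutting the genome into 150 bp bins and keeping those that hold 4 or more cytosines of a context, the CpG DMRs took up 0.0129% of the bins, the CpHpG DMRs 0.105% and the CpHpH DMRs 0.382%. The authors required a difference in proportion of 0.2 in CpG and CpHpG and of 0.1 in CpHpH. The smallest CpG difference in the table was nevertheless 40.2 points, so that smaller CpG differences were not analysed here, while those of the other contexts began at the stated minimum.

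Over all DMRs, SQH had a median of 6.95 reads per cytosine and SQL one of 7.98, and SQL was the deeper library at 66.5% of the DMRs. The share of CpHpH DMRs higher in SQL was 35.8%, 33.9% and 34.2% in 3 classes of equal size from shallow to deep. The CpHpG share was 51.4%, 54.7% and 56.3% in the same order. In both contexts the intervals of the 3 classes overlapped. At least 8 reads per cytosine in both libraries were present at 21 CpG, 197 CpHpG and 521 CpHpH DMRs, and the regions called deep below come from these. All intervals cover counting error only, and a read that spans several cytosines is counted once for each, so that they are too narrow.

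The sequences of some of the regions described below are shown here because they show how few cytosines a CpG value rests on and how many more a CpHpH value does. All are from the plus strand of the TAIR10 genome (RefSeq), 5′ to 3′, with capitals for the cytosines of the context, a capital G being a cytosine of the minus strand. The number of capitals equals the number of cytosines that the authors list, as it did for all 3501 regions when their positions were read from RefSeq.
V-ATPase subunit D gene AT3G58730, CpG, chr3:21718601-21718750: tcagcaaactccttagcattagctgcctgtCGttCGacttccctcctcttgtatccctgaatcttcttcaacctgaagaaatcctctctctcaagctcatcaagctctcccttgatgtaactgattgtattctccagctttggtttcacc
LBD16 intron, CpG, chr2:17664101-17664250: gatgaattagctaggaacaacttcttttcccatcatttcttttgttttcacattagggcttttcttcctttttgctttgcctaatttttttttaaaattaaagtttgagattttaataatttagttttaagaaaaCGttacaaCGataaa
ATREP10D element over LURE1.1, CpHpG, chr5:17370605-17370754: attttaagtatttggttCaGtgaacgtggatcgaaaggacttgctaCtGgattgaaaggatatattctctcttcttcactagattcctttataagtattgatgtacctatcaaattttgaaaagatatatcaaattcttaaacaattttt
CRK41 exon, CpHpG, chr4:420851-421000: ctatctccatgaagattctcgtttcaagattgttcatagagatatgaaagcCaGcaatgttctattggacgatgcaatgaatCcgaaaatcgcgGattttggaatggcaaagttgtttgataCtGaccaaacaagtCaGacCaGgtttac
RP1_AT element at AT1G33870, CpHpH, chr1:12303001-12303150: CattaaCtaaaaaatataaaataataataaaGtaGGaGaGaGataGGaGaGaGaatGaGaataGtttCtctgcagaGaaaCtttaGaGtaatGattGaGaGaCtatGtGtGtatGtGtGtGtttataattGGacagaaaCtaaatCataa
RathE3_cons element upstream of ATHB-15, CpHpH, chr1:19415251-19415400: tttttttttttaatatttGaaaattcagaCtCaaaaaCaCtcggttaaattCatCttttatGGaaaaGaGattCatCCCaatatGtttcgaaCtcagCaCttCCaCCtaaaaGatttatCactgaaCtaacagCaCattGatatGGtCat
ATREP16 element in AT4G03380, CpHpH, chr4:1487351-1487500: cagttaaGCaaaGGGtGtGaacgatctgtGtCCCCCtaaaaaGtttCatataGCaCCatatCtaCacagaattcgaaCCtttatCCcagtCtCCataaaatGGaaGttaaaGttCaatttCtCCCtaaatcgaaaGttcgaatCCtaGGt
RathE2_cons element upstream of DCL3, CpHpH, chr3:15753101-15753250: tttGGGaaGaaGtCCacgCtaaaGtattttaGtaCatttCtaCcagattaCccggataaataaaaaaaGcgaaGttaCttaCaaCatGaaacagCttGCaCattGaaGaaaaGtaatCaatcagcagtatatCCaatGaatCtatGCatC
ATREP3 element upstream of MET1, CpHpH, chr5:19931405-19931554: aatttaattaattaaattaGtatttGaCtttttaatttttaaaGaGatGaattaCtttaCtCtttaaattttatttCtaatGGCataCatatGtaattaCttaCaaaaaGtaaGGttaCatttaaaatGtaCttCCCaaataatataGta

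Both CpG sequences hold 4 cytosines each, 1 on each strand of every CpG pair. This was the usual case, since 74.7% of the single-bin CpG DMRs had exactly 4 cytosines, the smallest number the authors allowed, against 23.4% of the genome bins. Single-bin CpHpH DMRs had a median of 34 cytosines, against 40 in the genome bins. Their GC content lay between 24.7% and 35.3% (lower and upper quartile), against 30.7% and 41.3% in the genome bins. CpHpG DMRs had a median GC content of 40.7%, against 38.0% in genome bins. Among the CpHpH cytosines of the DMRs, 20.0% stood in CAA and 8.83% in CTC, against 18.1% and 10.6% in the genome. The genome bins, here and below, were taken by sequence alone, whatever their methylation or depth.

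The levels themselves differed between the contexts. CpG DMRs higher in SQL had a median level of 36.6% in SQH and 79.3% in SQL. The 15 lower ones had 87.0% and 39.0%. CpHpG DMRs had medians of 27.7% in SQH and 54.5% in SQL where higher, and of 54.2% and 25% where lower. CpHpH DMRs had 11.4% and 24.8% where higher, and 25.4% and 12.02% where lower. The sizes of the differences were alike in both directions, with medians of 12.7 points for higher and -12.8 for lower CpHpH regions and of 26.1 and -26.2 points in CpHpG.

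**Figure D1:**
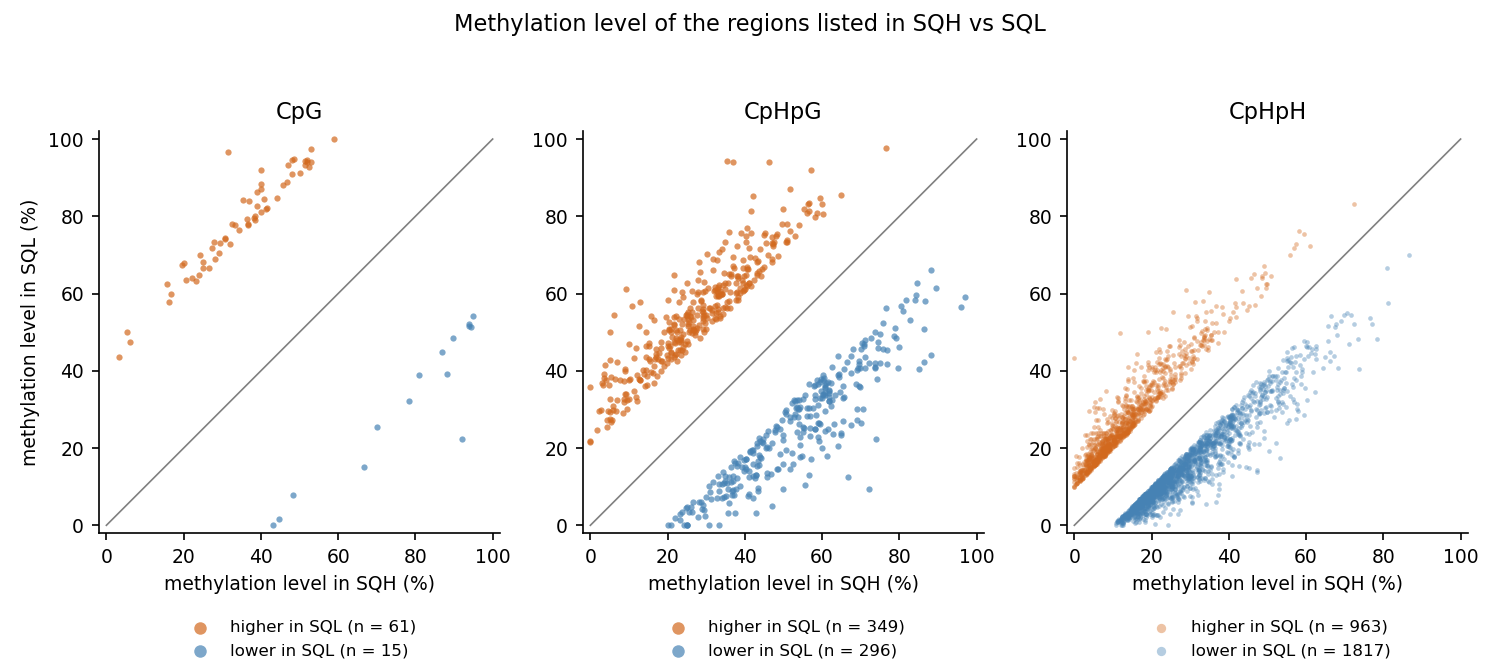
Each point is 1 DMR, with its methylation level in SQH on the x axis and in SQL on the y axis, both in percent, for CpG, CpHpG and CpHpH. The grey diagonal marks equal levels, and the empty band along it is the minimum difference of the table. Most CpG points (61 of 76) lie above the diagonal and most CpHpH points (1817 of 2780) below it.

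A level of 0 was seen at 29 DMRs. The CpG region of AT2G35010, the mitochondrial thioredoxin TO1, had 22 of 51 reads methylated in SQH and 0 of 42 in SQL. Over its 4 cytosines that allows up to 7.14% in SQL, with each summed read as an observation. An ATREP10D element 5104 bp upstream of AT4G19220 had 0 of 74 reads methylated in SQH in CpHpH, over 18 cytosines. That allows up to 4.05%, counted in the same way, and the level was 43.4% in SQL (21.4% in FLH and 41.1% in FLL). Both limits are too low where 1 read spans several cytosines. In SQH the ATREP10D region was close to the authors' minimum of 4 reads per cytosine. Its difference was the largest CpHpH difference of the table. Of the other CpHpH regions at 0, 11 were at 0 in SQH and 5 in SQL.

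Among CpG DMRs the largest difference lay in AT3G58730, the gene of subunit D of the vacuolar proton pump (V-ATPase), which acidifies the vacuole. In an exon 35 of 38 reads were methylated in SQH (92.1%) and 10 of 45 in SQL (22.2%), a difference of -69.9 points (95% Newcombe interval -80.9 to -50.8). Among the 5 deep CpG regions that were lower in SQL, the other 4 were also in gene bodies outside TEs. They were in SIP1 (AT1G55740), with 78.4% in SQH and 32.2% in SQL, in TO1, in AT1G30470, with 94.4% and 51.4%, and in the EF-hand protein gene AT1G20760, with 44.7% and 1.69%. All 5 of these regions held 4 CpG cytosines.

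The CpG regions higher in SQL with large differences lay both within and outside TEs. An ATCOPIA11 element near TKPR2 had 19.6% in SQH and 67.5% in SQL. An intron of LBD16, a transcription factor of lateral root formation, had 5 of 32 reads methylated in SQH (15.6%) and 30 of 48 in SQL (62.5%). Outside TEs, the auxin efflux carrier family gene AT1G20925 had 30.8% in SQH and 74.4% in SQL, and OVA1, which encodes an organellar methionyl-tRNA synthetase, had 30.8% and 74.1%. Of the 25 CpG DMRs outside TEs, 18 were higher in SQL (72.0%, 52.4 to 85.7), and of the 51 within TEs, 43 were (84.3%, 72.0 to 91.8). The 2 intervals overlap.

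CpHpG DMRs lay in TEs at 572 of 645 regions (88.7%). The largest difference among the deep regions was in the ATREP10D element that covers part of LURE1.1 (AT5G43285), a gene of the family of pollen tube attractants, where 22 of 33 reads were methylated in SQH (66.7%) and 4 of 32 in SQL (12.5%). The difference was -54.2 points (-69.7 to -31.1). The next were an ATREP2 element near AT4G10843, with 88.2% in SQH and 44.1% in SQL, and an ATMU6N1 element upstream of the ribosomal protein gene AT3G09680, with 64.1% and 20.6%. An ATREP1 element upstream of ARLA1C had 46.9% and 4.88%. In the other direction a VANDAL22 element had 41.5% in SQH and 81.3% in SQL, and an ATGP5 element had 4 of 80 reads methylated in SQH and 45 of 105 in SQL (42.9%). That ATGP5 region gave the narrowest interval of these, 26.3 to 47.9 points.

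Outside TEs, an exon of CRK41, a cysteine-rich receptor-like kinase, had CpHpG levels of 22.8% in SQH and 53.5% in SQL, a difference of 30.7 points (16.5 to 43.2). The thionin family gene AT1G30974 had 54.3% in SQH and 20.8% in SQL. The GDSL lipase gene AT3G43570 had 40.8% in SQH and 7.69% in SQL, and the ACT-like gene AT5G25320 had 35.9% and 5.71%. Both directions thus occurred in annotated exons, with 29 of 59 exonic CpHpG DMRs outside TEs higher in SQL (49.2%, 36.8 to 61.6).

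CpHpH DMRs lay in TEs at 2493 of 2780 regions (89.7%). The largest negative difference among the deep regions was in an RP1_AT element inside the annotated span of AT1G33870, 255 bp from the gene start, with 237 of 322 reads methylated in SQH (73.6%) and 181 of 447 in SQL (40.5%). The difference was -33.1 points (-39.5 to -26.3). An ATREP2 element 254 bp upstream of AT3G47250 had 60.2% in SQH and 32.3% in SQL, and an ATREP5 element on chromosome 2 had 24.6% and 2.90%. A VANDAL5 element near AT1G52100 had 33.8% and 12.2%, and an AT9NMU1 element near RAB7B had 38.8% and 17.2%. All 5 of these regions lay in TEs.

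The largest positive CpHpH difference among the deep regions lay in a RathE3_cons element 561 bp upstream of ATHB-15, a class III homeodomain gene of meristem and vascular development, with 17 of 296 reads methylated in SQH (5.74%) and 95 of 312 in SQL (30.4%). The difference was 24.7 points (18.9 to 30.4). A 300 bp region at RTFL17, a member of the ROTUNDIFOLIA-like family of small peptides, had 125 of 562 reads methylated in SQH (22.2%) and 400 of 889 in SQL (44.99%). The region 264 bp upstream of PUT2, an amino acid permease family gene, had 19.1% in SQH and 41.5% in SQL. The region 507 bp upstream of AT5G39980 had 19.2% and 41.0%, and a HELITRONY2 element 495 bp upstream of AT4G13360 had 6.04% and 27.2%. Of these 5 regions 4 lay within 1 kb upstream of a gene start, and RTFL17 was the exception. Outside TEs, the largest CpHpH differences of the other sign among the deep regions were in the F-box gene AT1G66300, with 25.1% in SQH and 7.17% in SQL, the lipid transfer protein gene AT4G22650, with 25.3% and 8.20%, and 834 bp upstream of AT1G07590, with 41.6% and 24.8%.

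TEs were grouped by their family names. Gypsy and Copia elements are retrotransposons with long terminal repeats, LINEs are retrotransposons without them, and Helitrons, Mutator-like, CACTA, hAT and Harbinger elements are DNA transposons. Helitrons held the most CpHpH DMRs, 1024 of 2780, and 373 of them were higher in SQL (36.4%, 33.5 to 39.4). How much of the genome each group or family takes up was not analysed. The numbers of DMRs per group and family, here and below, thus show no preference. Mutator-like elements had 129 of 418 higher (30.9%, 26.6 to 35.4), LINEs 41 of 131 (31.3%) and Copia elements 49 of 149 (32.9%). Gypsy elements had 53 of 201 higher (26.4%, 20.8 to 32.9) and CACTA elements 5 of 36 (13.9%, 6.08 to 28.7). CpHpH DMRs outside TEs had 115 of 287 higher (40.1%, 34.6 to 45.8). Of the groups with at least 30 regions, Gypsy and CACTA had intervals below the 34.6% of all CpHpH DMRs, and the intervals of the others held it. That share includes the groups themselves, and a difference between groups was not tested. At 8 or more reads per cytosine neither group had an interval below 34.6%. There 6 of 18 Gypsy regions were higher (33.3%, 16.3 to 56.3) and 1 CACTA region was left. Of the 15 Copia regions with at least 8 reads per cytosine, 9 were higher in SQL (60.0%, 35.7 to 80.2). This interval is too wide to give the majority direction of the deeper Copia regions.

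In CpHpG the order differed. Gypsy elements held 236 of 645 CpHpG DMRs, and 140 of them were higher in SQL (59.3%, 53.0 to 65.4). Copia elements had 41 of 60 higher (68.3%, 55.8 to 78.7) and LINEs 27 of 44 (61.4%, 46.6 to 74.3). Helitrons had 37 of 80 higher (46.2%, 35.7 to 57.1) and Mutator-like elements 43 of 90 (47.8%, 37.8 to 58.0). Gypsy elements thus had mostly higher CpHpG and mostly lower CpHpH levels in SQL, for the most part at different bins. Where a bin was listed in both contexts the direction was the same, as described below. Among the CpHpG regions with at least 8 reads per cytosine, 45 of 66 Gypsy regions (68.2%) and 4 of 19 regions outside TEs (21.1%) were higher. At that depth 14 of 21 Copia regions were higher (66.7%, 45.4 to 82.8). This interval held the 54.1% of all CpHpG DMRs, which that of all 60 Copia regions did not.

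**Figure D2:**
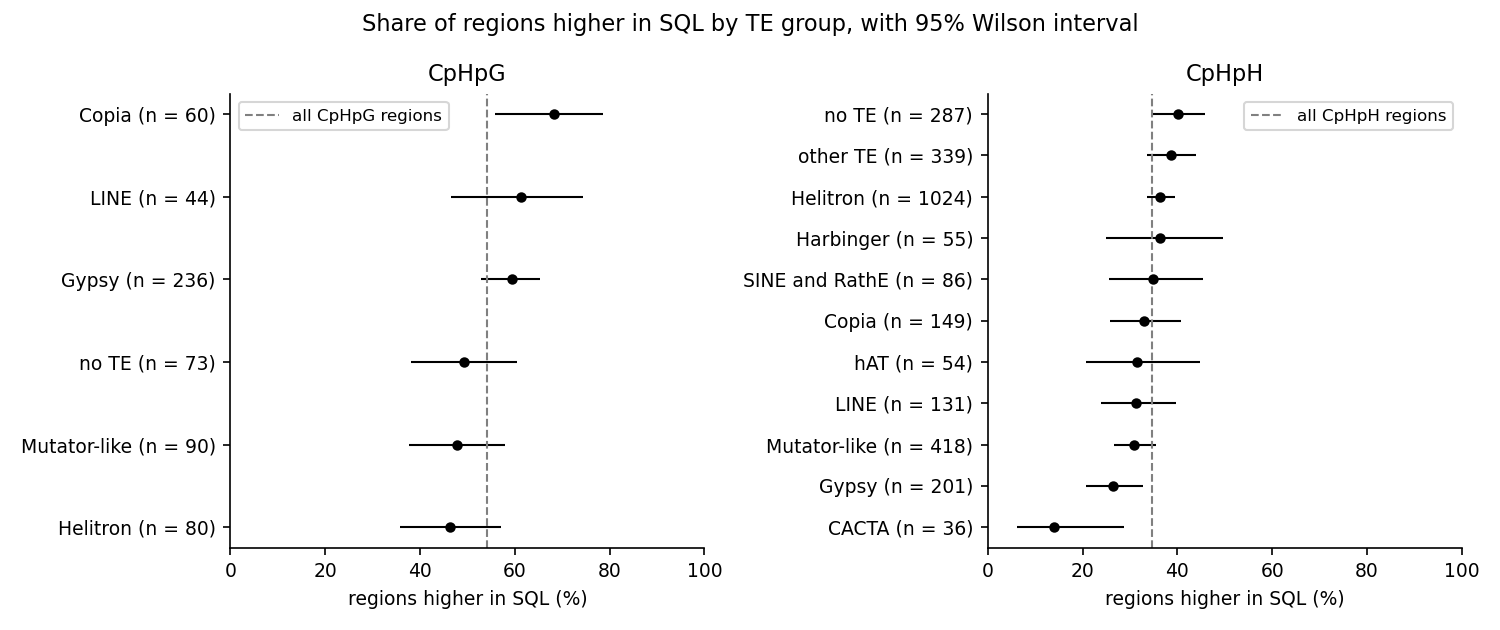
Points give the share of DMRs that were higher in SQL, in percent on the x axis, for each TE group with at least 30 regions in CpHpG (left) and CpHpH (right). Bars are 95% Wilson intervals over regions and the dashed line is the share over all regions of the context. In CpHpH the intervals of Gypsy (20.8 to 32.9) and CACTA (6.08 to 28.7) lie below the line, and in CpHpG that of Copia (55.8 to 78.7) lies above it.

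By family, 251 names occurred and 26 of them had at least 30 DMRs, together 1464 regions or 47.0% of those in TEs. ATREP3 Helitrons had the most CpHpH DMRs, with 85 of 232 higher in SQL (36.6%, 30.7 to 43.0) over 166 loci. HELITRONY3 followed with 55 of 135 (40.7%) and ATREP10D with 25 of 74 (33.8%). The lowest CpHpH shares among the 26 families were those of ATREP13, with 5 of 30 (16.7%, 7.34 to 33.6), and ATREP5, with 9 of 44 (20.5%, 11.2 to 34.5). The highest were those of ATREP15, with 14 of 29 (48.3%), and ARNOLDY1, with 19 of 40 (47.5%). In each of the 26 families more CpHpH DMRs were lower than higher in SQL. ATHILA2, a Gypsy family, had 31 of 46 higher in CpHpG (67.4%, 53.0 to 79.1) and 7 of 32 higher in CpHpH (21.9%, 11.0 to 38.8). The intervals over regions do not overlap, but the difference between the contexts was not tested.

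The same element often held DMRs of both directions. Of 330 TE loci with at least 2 CpHpH DMRs, 152 had them all in 1 direction (124 lower and 28 higher in SQL). Of 42 loci with at least 2 CpHpG DMRs, 23 had 1 direction, and 21 of these were higher. Neighbouring CpHpH DMRs 0 to 300 bp apart, within elements or not, had the same direction in 77 of 207 cases (37.2%). Unrelated directions would give 54.7%, and the classes of neighbours farther apart had between 56.1% and 57.4%. In CpHpG, 9 of 13 close neighbours had the same direction. A DMR wider than 1 bin counts once and with 1 direction, so its bins give no pair. Joining bins thus takes pairs of the same direction out of the closest class. The 37.2% can therefore not be set against the 54.7%, and the counts of loci with 1 direction are affected too. Whether mixed directions are a trait of the elements was not tested. The loci with the most DMRs, the TA11 LINE AT1TE33490 and the ATHILA6A element AT5TE43260, had 6 each, of which 2 were higher and 4 lower. The TA11 pseudogene AT5G25205 also had 6, with 4 higher, and the Copia pseudogene AT1G36035 had 5, with 2 higher and 3 lower. In AT1G36035 both CpHpG regions were higher (13 of 47 reads in SQH and 30 of 50 in SQL at one, 43.0% and 68.1% at the other) and all 3 CpHpH regions lower. The retrotransposon pseudogene AT2G21460 had the same arrangement, with 58.7% in SQH and 80.8% in SQL at one CpHpG region, 28.6% and 58.1% at the other, and 2 CpHpH regions lower (21.3% and 9.39%, 23.5% and 10.9%). The pseudogene AT3G30749, which holds ATHILA sequence, had 4 CpHpG regions, of which 2 were higher (39.3% and 63.6%, 38.8% and 61.4%) and 2 lower (69.1% and 40.3%, 43.8% and 22.5%). Of the 3 regions in its ATHILA2 element, 2 were higher and 1 was lower, and the other lower region lay in an ATHILA6B element.

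Where 2 contexts were listed in 1 bin, their directions were nearly always the same. All 47 bins listed in both CpHpG and CpHpH had 1 direction in both, 14 higher and 33 lower in SQL. The same held at 5 of 5 bins listed in CpG and CpHpG and at 2 of 3 listed in CpG and CpHpH. At the RathE3_cons element upstream of ATHB-15 the CpHpG level was 17.2% in SQH and 38.8% in SQL, beside 5.74% and 30.4% in CpHpH. At the ATREP2 element upstream of AT3G47250 it was 68.7% and 36.5%, beside 60.2% and 32.3%. In a VANDAL6 element over AT1G23930, the CpG level was 51.4% in SQH and 93.3% in SQL, and the CpHpG level was 46.2% and 93.9%. The exception was an ATN9_1 element on chromosome 5, with CpG levels of 6.06% in SQH and 47.5% in SQL but CpHpH levels of 41.1% and 25.6%. The contexts of 1 bin share their reads, so that these are not separate observations.

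CpHpH DMRs wider than 1 bin were mostly lower in SQL. Of the CpHpH DMRs of 150 bp, 918 of 2578 were higher, of those of 300 bp 41 of 162, of those of 450 bp 4 of 31, and of those of 600 bp 0 of 9. Wide DMRs of the other contexts were few and mostly higher, with 6 of 8 CpHpG DMRs of 300 bp, 2 of 3 of 450 bp and the 1 wide CpG DMR. When CpHpH DMRs within 1 kb were joined, 2371 clusters were left of the 2780 regions, none with more than 4 members, and 794 of them were higher in SQL by their summed reads. The lower CpHpH levels were thus spread over many places.

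Along the chromosomes, the share of CpHpH DMRs higher in SQL was between 33.9% and 36.3% on all 5. Pericentromeric sequence was taken as the windows of 500 kb near a centromere whose gene count was under 0.5 times the median of all windows. It held 14.0% of the CpHpG genome bins but 363 of the 645 CpHpG DMRs (56.3%). It held 19 of the 76 CpG DMRs and 18.9% of the CpHpH DMRs, against 14.4% and 14.6% of the genome bins. A DMR needs methylation in at least 1 library, while the genome bins include unmethylated ones. Where methylated bins lie was not analysed, so these shares cannot be told apart from those of methylated bins. CpHpG DMRs were higher in SQL at 57.3% of the pericentromeric regions (52.2 to 62.3) and at 50.0% of those on the arms (44.2 to 55.8).

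CpHpH DMRs lay on the upstream side of genes more than the genome as a whole. Between 500 and 1000 bp upstream of the nearest protein-coding gene start lay 428 CpHpH DMRs (15.4%), against 8.21% of the genome bins. Between 0 and 500 bp upstream lay 388 (14.0% against 10.3%), and between 0 and 500 bp downstream 67 (2.41% against 11.2%). The share higher in SQL was 40.4% in the first of these windows and 35.8% in the second. CpHpG DMRs instead lay far from gene starts, with 37.4% of them more than 3000 bp upstream, against 9.64% of the genome bins. These genome bins again include unmethylated ones, so the shares cannot be told apart from those of methylated bins.

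**Figure D3:**
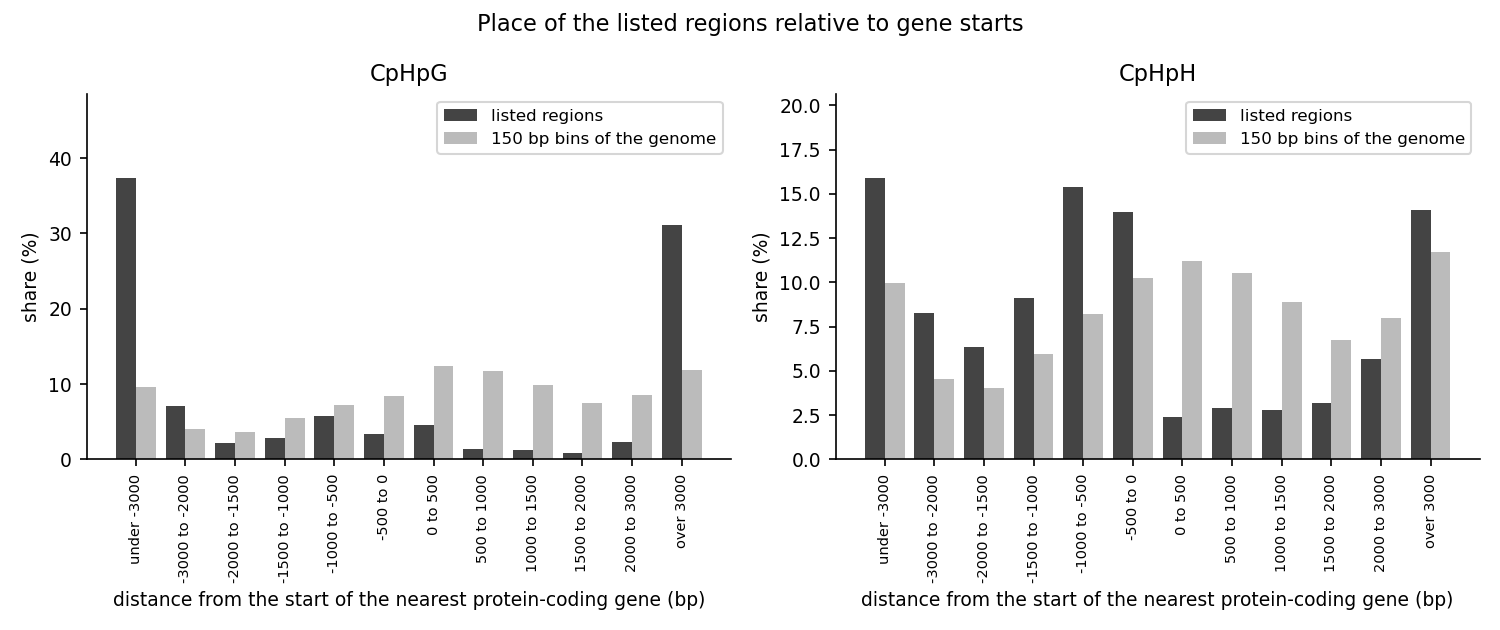
Bars give the percentage of listed regions (dark) and of all 150 bp genome bins with at least 4 cytosines of the context (light) by distance in bp from the start of the nearest protein-coding gene, negative values being upstream. CpHpH regions (right) are more frequent than genome bins at -1000 to -500 bp (15.4% against 8.21%) and rarer at 0 to 500 bp (2.41% against 11.2%), while CpHpG regions (left) gather beyond 3000 bp.

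By the feature classes of the table, which a region may share, exons held 37 of 76 CpG DMRs (48.7%), 408 of 645 CpHpG DMRs (63.3%) and 506 of 2780 CpHpH DMRs (18.2%). Most exonic CpHpG DMRs were in TEs, with 59 of the 408 outside them. Promoters held 587 CpHpH DMRs (21.1%), and 214 of them were higher in SQL (36.5%, 32.7 to 40.4). Introns held 164 CpHpH DMRs, with 46 higher (28.0%, 21.7 to 35.4), and exons had 144 higher (28.5%, 24.7 to 32.5). Every region of the table had a feature class, which the tables of the other comparisons do not give. A gene name and a TE name were both missing at 4.57% of the listed regions, but at between 15.3% and 15.9% of those in each of the other tables. The share in TEs was 89.7% of the CpHpH regions of SQH vs SQL and 77.7% of those of FLH vs FLL. Whether regions outside genes, promoters and TEs were called and left out was not tested, and the shares in TEs and near gene starts depend on it. The share of genome bins in TEs or in each feature class was not analysed either, so the shares of DMRs in them show no preference.

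The DMRs were searched for 25 genes of the DNA methylation machinery, 18 genes of photoreceptors and light signalling and 15 genes of photoprotection and high-light response. The table placed 0 DMRs in any of these 58 genes, while it placed DMRs in 280 of the 27444 protein-coding genes of RefSeq (1.02%). Within 1 kb upstream of a start, 2 of the 25 machinery genes and 0 of the other 33 had a DMR, against 802 of all protein-coding genes (2.92%). With so few genes on the lists, these counts say nothing particular about them. The first was DCL3, the Dicer that makes the small RNAs of RNA-directed methylation. A RathE2_cons element 212 bp upstream of it had 64 of 317 reads methylated in SQH in CpHpH (20.2%) and 31 of 397 in SQL (7.81%), a difference of -12.4 points (-17.7 to -7.30). The second was MET1, the CpG maintenance methyltransferase, with an ATREP3 element 635 bp upstream. There 30 of 216 reads were methylated in SQH (13.9%) and 86 of 293 in SQL (29.4%), a difference of 15.5 points (8.27 to 22.2), and the level was 11.2% in FLH and 25.7% in FLL. The region upstream of MET1 was the higher one in the low-light library of both pairs. Transcript levels were not analysed here.

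FLH vs FLL shares no library with SQH vs SQL, and so gives a second, separate pair of high and low light. There 51.3% of 2374 CpG, 62.2% of 793 CpHpG and 65.5% of 3105 CpHpH DMRs were higher in low light. The share of SQH vs SQL minus that of FLH vs FLL was 29.0 points in CpG (95% Newcombe interval over regions 18.5 to 36.6), -8.06 points in CpHpG (-13.1 to -2.94) and -30.8 points in CpHpH (-33.2 to -28.4). The CpG lists are not alike, since the differences of FLH vs FLL begin at 20.0 points and those of SQH vs SQL at 40.2. With a common minimum of 0.4, FLH vs FLL kept 77 CpG regions, of which 44 were higher in low light (57.1%), and the CpG shares differed by 23.1 points. Most CpHpH DMRs of SQH vs SQL were thus lower in low light, while most of those of FLH vs FLL were higher in low light. The 2 lists hold mostly different regions, as described below. These are shares over the regions of 2 pairs of single libraries. Regions are not replicates, so these intervals do not cover differences between libraries, and the difference between the regimes was not tested.

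Of the 3501 DMRs, 449 overlapped a DMR of FLH vs FLL in the same context, in 453 pairs. That is 12.8% of the SQH vs SQL list and 7.14% of the other. FLH vs FLL listed 3105 CpHpH regions beside 793111 genome bins, 2374 CpG regions beside 598811 and 793 CpHpG regions beside 625705. The overlap was thus larger than the share of all genome bins that FLH vs FLL listed. These bins include unmethylated and shallow ones, so the overlap that unrelated lists would give was not analysed. The direction was the same in 201 pairs (44.4%, 39.9 to 49.0). Of these pairs, 38.6% were higher in SQL and 64.2% were higher in FLL, and unrelated directions with these shares would give 46.8% of pairs with the same direction. In CpHpH, 196 of 436 pairs had the same direction (44.95%, 40.3 to 49.6), beside 46.6% for unrelated directions, and the most frequent kind, with 177 pairs, was lower in SQL and higher in FLL. In these 177 pairs the median levels were 33.1% and 17.2% in SQH and SQL, and 20.2% and 34.9% in FLH and FLL. In CpG, 1 of 11 pairs had the same direction (9.09%, 1.62 to 37.7), and in CpHpG 4 of 6.

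**Figure D4:**
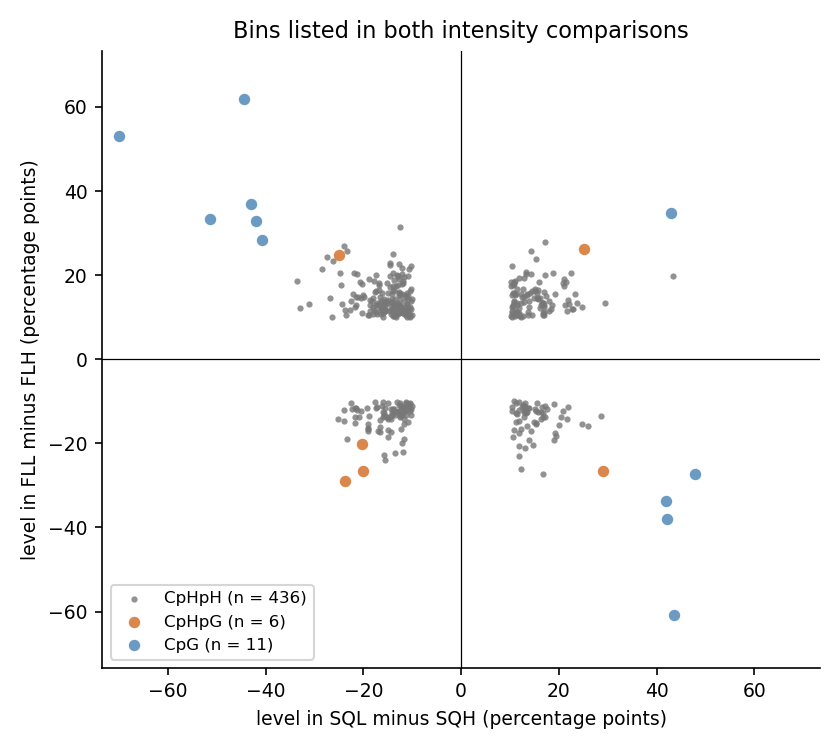
Each point is a bin listed in both intensity comparisons, with its difference SQL minus SQH on the x axis and FLL minus FLH on the y axis, in percentage points. Points in the upper right and lower left have the same direction in both. CpHpH points (grey) fill all corners, most of all the upper left (177 of 436), while 10 of the 11 CpG points (blue) lie in the upper left or lower right.

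At 10 of the 11 CpG pairs the differences had opposite signs. In AT3G58730, the V-ATPase gene printed above, SQH and SQL had 92.1% and 22.2%, and FLH and FLL had 37.0% and 90.0%. In AT1G20760 it was 44.7%, 1.69%, 20.0% and 56.8% in the same order, and in AT1G20925 30.8%, 74.4%, 69.0% and 8.33%. An intron of the bHLH gene AT1G62975 had 22.2%, 64.1%, 63.0% and 29.2%. In each of these genes the high-light and low-light libraries changed places between the regimes. The exception was an ATHILA2 element over AT2G06335, with 48.0% in SQH and 90.9% in SQL, and 58.3% in FLH and 93.1% in FLL.

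**Figure D5:**
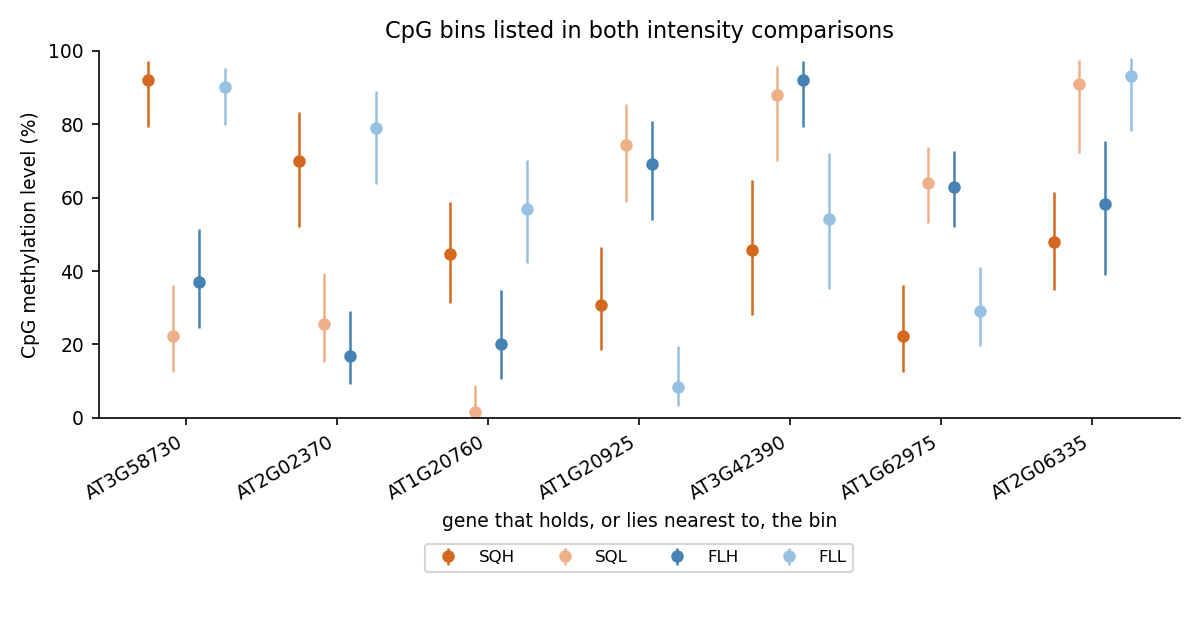
CpG methylation level in percent (y axis) in the 4 libraries, with 95% Wilson intervals of the reads, at the 7 CpG bins listed in both intensity comparisons that the naming rule selects, by the gene that holds or lies nearest to the bin. In the first 6 the order of SQH and SQL is the reverse of that of FLH and FLL, and at AT2G06335 both low-light libraries are the higher ones (90.9% and 93.1%).

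The CpHpH bins described next were taken from each of the 4 combinations of directions, for their large differences in both comparisons. An ATREP16 element in AT4G03380 had 68.2% in SQH and 40.8% in SQL, but 31.6% in FLH and 55.9% in FLL. The SCR-like gene AT1G60987 had 4.73% in SQH and 23.9% in SQL, but 26.2% in FLH and 8.55% in FLL. An ARNOLDY1 element near AT4G37030 was lower in low light under both regimes, with 39.9% and 16.5% in the square pair and 50.6% and 31.6% in the fluctuating pair. An ATREP12 element upstream of AT1G34315 was higher under both, with 13.1%, 35.6%, 25.3% and 45.8% in the same order. An ATTIRX1C element 2980 bp upstream of RGL1, a DELLA repressor of gibberellin responses, was also higher under both, with 31.6%, 52.8%, 40.1% and 59.2%. In CpHpG, a VANDAL3 element over AT5G35045 was lower in low light under both regimes, with 51.6%, 28.0%, 67.6% and 38.6%, and an ATHILA6B element over AT5G32254 was higher under both, with 37.6% and 62.9% in the square pair and with 48.8% in FLH and 75 of 100 reads in FLL.

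The authors had called the 84 regions that the naming rule selected from these same reads, with a p-value limit and a minimum difference. All 84 therefore had an interval of the difference without 0 when each summed read was an observation, which is no separate support. With the mean number of reads per cytosine as the number of observations, which is a lower limit, 12 did, of which 9 were in CpG, 3 in CpHpG and 0 in CpHpH. For AT3G58730 that interval was -86.4 to -27.3 points, and for the RP1_AT element -61.6 to 8.96. The smallest listed difference was 40.2 points in CpG but 10 points in CpHpH, so the contexts cannot be compared by these counts.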

How the data were processed

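Whole-genome bisulfite sequencing was done on leaf DNA, in 1 pooled library of 6 plants per regime. Per the submitters' processing notes, Trimmomatic 0.39, Bismark and Bowtie2 were used with the TAIR10 genome. The authors called DMRs in bins of 150 bp with DMRcaller, requiring a p-value of 0.01, 4 cytosines, 4 reads per cytosine, and a difference of 0.2 (CpG, CpHpG) or 0.1 (CpHpH). The deposited values used are counts of methylated and of all reads, added up by the authors over a region's cytosines and not normalized. The deposited p-values and directions are the authors' own comparison and were not used.

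From these counts, levels and differences were recomputed, with Wilson and Newcombe 95% intervals. With 1 library per regime no test of the conditions was possible. Fisher's exact test on numbers of regions, SQH vs SQL beside FLH vs FLL, was computed, but its p-values are not given, because regions of single libraries are not replicates. The functions for intervals, overlaps and adjustment were tested on simulated data. The 5017 lines of the table hold 3501 regions, because a region has 1 line per feature class. A library's reads were the same in both tables at each region that 2 tables list (874 for SQH and 745 for SQL). Gene names came from the table and from RefSeq.

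Regions named are the 5 largest differences per context and direction with a depth of 8 reads per cytosine or more in each library, the 3 largest in gene features outside TEs, list genes, the 5 genes and 5 TE loci with the most DMRs, and the 3 bins per direction pattern also listed in FLH vs FLL with the largest smaller difference, besides TE families with 30 or more DMRs. The list genes with a DMR upstream and bins listed in several contexts were chosen after their values were seen. Not every region that this rule names is reported here. The members and lists were chosen with earlier results of these data known. Software was Python 3.11.15, SciPy 1.17.1, pandas 2.3.3, numpy 2.4.6 and matplotlib 3.10.9.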

Additional observations from a re-analysis of the deposited data

Results flagged for a closer look

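The share of DMRs higher in low light in SQH vs SQL minus that in FLH vs FLL was 29.0 points in CpG, -8.06 points in CpHpG and -30.8 points in CpHpH. With 1 library per regime a difference between the regimes was not tested.

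Of the 453 pairs of overlapping DMRs in the intensity comparisons, 184 were lower in SQL and higher in FLL and 68 the reverse, and for none was the difference between the regimes tested. The naming rule took 14 of these. In CpG they were AT3G58730 (-69.9 points), AT1G20760 (-43.0), AT1G20925 (43.6) and AT1G62975 (41.9), and TE bins nearest to AT2G02370 (-44.5) and AT3G42390 (42.2). In CpHpG they were the ATLANTYS2 bin over AT2G13080 (-25.0 points) and the ATHILA4C bin over AT5G32386 (29.1). In CpHpH they were AT4G03380 (-27.4 points), AT1G45163 (-23.9) and AT1G60987 (19.1), and TE bins nearest to AT1G33470 (-26.2), to AT3G47250 (18.9) and to AT1G30330, the auxin response factor gene ARF6 (19.5). These bins were selected for large differences in both comparisons.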

How the results depend on the processing

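Under the alternatives run, each context kept its majority direction. With every line of the table counted, the numbers were 93 higher and 26 lower in CpG, and 597 and 487 in CpHpG. With a Fisher p of at most 0.001 on the summed reads they were 223 and 161 in CpHpG, and the share higher was 58.1%. At 8 reads per cytosine or more in each library, 16 CpG DMRs were higher and 5 lower, 111 and 86 in CpHpG, and 185 and 336 in CpHpH. The share in TEs was then 47.6% in CpG and 86.8% in CpHpH, 49 bins were shared with FLH vs FLL and 38.8% of them had the same direction, and the CpHpG share in SQH vs SQL minus that in FLH vs FLL was -9.12 points. Among these deeper regions the share higher in SQL was 68.2% for Gypsy, 100% for 8 LINE regions and 21.1% outside TEs in CpHpG. In CpHpH it was 60.0% for 15 Copia regions (35.7 to 80.2), against 32.9% for all 149. It was 33.3% for 18 Gypsy regions, 0% for 5 hAT regions and 1 CACTA region, 46.4% outside TEs and 29.0% in other TEs. The deeper subset holds fewer regions, and the cause of these shifts was not tested. Joining regions within 1 kb and identical bin borders changed no result by more than its interval or 1.5 times. With a common CpG minimum of 0.4, FLH vs FLL kept 77 of its 2374 CpG regions, and the CpG shares differed by 23.1 points instead of 29.0. No paired analysis was possible because each regime has 1 library. The median depth of 6.95 reads per cytosine in SQH and 7.98 in SQL limits what single regions show, and regions that were not listed were not analysed here.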
